A study of Rattus norvegicus with 23 samples.

Results

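The subject is the set of genes that license DNA for replication, followed here in femora taken from female Wistar rats. The 10 genes were chosen by symbol from the 30562 genes counted: Mcm2, Mcm3, Mcm4, Mcm5, Mcm6 and Mcm7, which encode the subunits of the replicative helicase, Cdc6 and Cdt1, which load it, Gmnn, which blocks loading, and Mcm10, which acts when the helicase is activated. All 10 had 1 row each and passed the filter on low counts. The 23 bulk libraries of polyadenylated RNA fell into 5 groups. Healthy controls (n = 4) had a standard diet and saline in their titles. The other 4 groups carried the metabolic osteoporosis model that the labels call MetOP, induced by L-NAME, which inhibits nitric oxide synthase, together with a high-fat diet, and received saline (n = 5), semaglutide (n = 5), PYY3-36 (n = 4, called PYY here) or both drugs (n = 5, called the combination). Semaglutide mimics the gut hormone GLP-1, and PYY3-36 is a peptide hormone of the gut. Diet and L-NAME differ together between the model and the controls and cannot be told apart. The treatment labels of the PYY libraries end in 36, 37, 38 and 39, so their common treatment rests on their titles. Titles of the MetOP libraries also carry "lfd" after "hfd", which the labels do not explain. Age, dose and duration are not given in the labels, and the labels do not state that each library is a different animal. The p-values therefore describe only the variation among these libraries, which may be technical.

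Before a cell copies its DNA, the origin recognition complex and Cdc6 sit on replication origins, and Cdt1 brings the ring made of Mcm2 to Mcm7 to them. The loaded rings stay inactive until S phase, when Cdc45 and the GINS proteins join them, with the help of Mcm10, to form the moving helicase. Geminin, the product of Gmnn, binds Cdt1 from S phase to mitosis and so keeps an origin from being licensed again in the same cycle. Transcription of most of these genes is driven by E2F factors around the passage from G1 to S, so their transcripts mark proliferating cells. In a femur such cells are mostly blood precursors of the marrow, with growth plate cartilage and bone-forming precursors as other sources.

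The E2F motif was the only one of 3 searched motifs found in every promoter at hand. The promoter stretches shown are those of the 4 helicase genes with a complete E2F match inside the printed 150 bases. The same stretches of Mcm3, Mcm10, Cdt1 and Gmnn hold none and are not shown. The printed stretches come from the RefSeq promoter table of GRCr8, which holds an entry for 8 of the 10 genes and none for Mcm4 and Cdc6. Each is the 150 bases that end just before the annotated start, written on the strand of the gene, with complete matches to an E2F motif in capitals.
Mcm2 (chr4:122918095-122918244, minus strand): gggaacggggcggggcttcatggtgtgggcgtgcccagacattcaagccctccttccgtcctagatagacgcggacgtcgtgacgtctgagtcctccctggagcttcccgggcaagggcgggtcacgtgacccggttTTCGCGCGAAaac
Mcm5 (chr19:13488663-13488812, plus strand): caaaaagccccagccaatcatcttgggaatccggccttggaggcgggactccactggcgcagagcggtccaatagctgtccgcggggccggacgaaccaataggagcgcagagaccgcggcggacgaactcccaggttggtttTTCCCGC
Mcm6 (chr13:42404353-42404502, minus strand): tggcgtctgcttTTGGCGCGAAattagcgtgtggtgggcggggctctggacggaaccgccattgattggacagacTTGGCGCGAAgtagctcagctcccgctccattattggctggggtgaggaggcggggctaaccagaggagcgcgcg
Mcm7 (chr12:22163179-22163328, minus strand): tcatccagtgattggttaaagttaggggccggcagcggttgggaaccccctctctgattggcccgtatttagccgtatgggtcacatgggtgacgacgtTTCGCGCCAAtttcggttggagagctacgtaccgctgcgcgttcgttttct

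The E2F motif was searched by the letters TTCCCGC, by the letters TTCGCGC and by the letters TTGGCGC, on both strands, from 250 bases before the start to 50 bases after it. It was found in 8 of the 8 genes with an entry, against 7.52% of the 33469 promoters in the table. At least 2 matches were found in 6 of the 8 genes, against 0.732% of all promoters. In the stretch of Mcm2 the capitals hold 2 matches on opposite strands that overlap, from -13 to -7 and from -10 to -4, where -1 is the last base before the start. The pair in Mcm7 lies from -51 to -42, and Mcm6 holds such a pair from -138 to -129 and another from -75 to -66. The printed match in Mcm5 ends at -1, and Mcm5 and Mcm7 hold further matches upstream, from -212 to -203 and from -233 to -227. A match in Mcm3 (-6 to 1) and another in Mcm6 (-5 to 2) run across the start, and Mcm3 holds another after it (15 to 21). The 3 matches of Cdt1 lie between 8 and 40 and that of Gmnn from 40 to 46. The match of Mcm10 lies far upstream, from -219 to -213. The CHR motif of genes expressed late in the cycle (the letters TTTGAA and the letters TTCGAA) was found in 2 of the 8 genes, Mcm2 and Mcm7, against 19.7% of all promoters. The NF-Y box CCAAT was found in 6 of the 8 genes, against 37.5%, and in Mcm7 it overlaps the pair of E2F matches. A match is a description of letters and was not tested as a binding site.

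**Figure D1:**
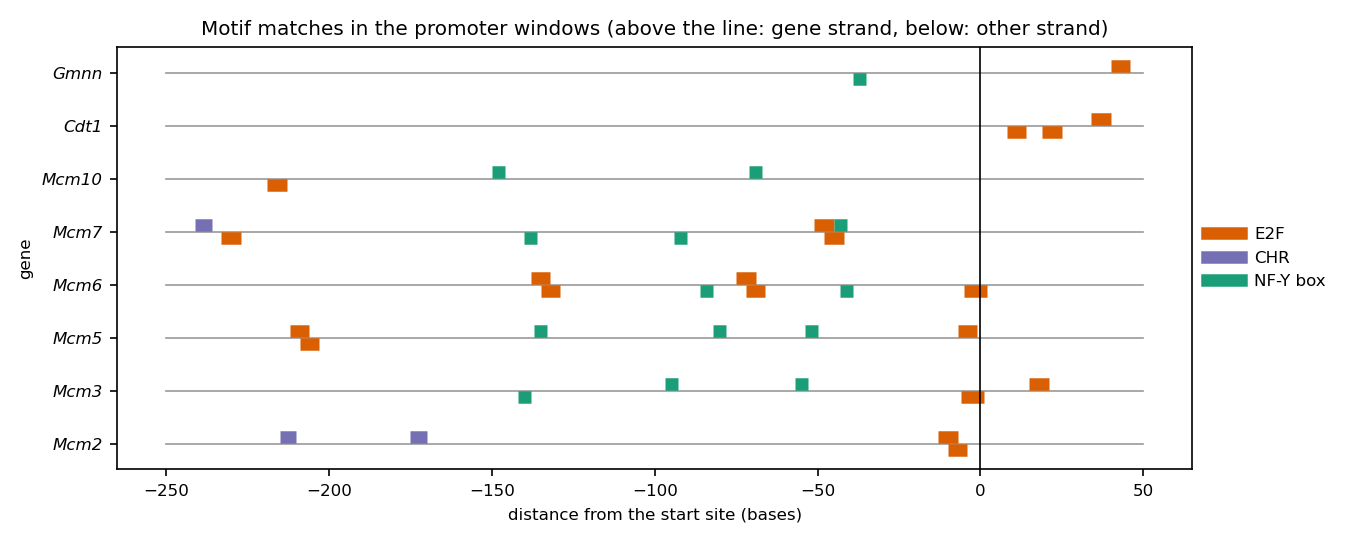
Matches to the E2F, CHR and NF-Y motifs in the 8 promoter windows, with the distance from the annotated start in bases on the horizontal axis and 1 gene per line. Bars above a line lie on the strand of the gene and bars below on the other strand. Each of the 8 genes holds an E2F match, near the start in Mcm2, Mcm3, Mcm5 and Mcm6 and after it in Cdt1 and Gmnn.

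Library totals ran between 19.25 and 40.65 M counts (M being the unit of depth in CPM, counts per M), of which mitochondrially encoded genes took 46.13 to 83.92%. The 10 genes together had 529 counts in the poorest library (combination A251) and 5404 in the richest (combination A320). Levels below are CPM scaled by TMM factors, and a count of 0 allows up to 3 counts, which is 0.05942 to 0.2004 CPM depending on the library and covers counting error only. Defining markers of erythroid, neutrophil, osteoblast and skeletal muscle cells were counted in these femora. The summed level of 8 skeletal muscle markers ran from 1233 CPM (combination A320) to 52810 CPM in the combination group alone, so the amount of muscle RNA differed widely between libraries.

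Per length of transcript, Mcm7 was the most abundant of the 10 genes, with a median of 5.03 FPKM over the 23 libraries, and it ranked first in 22 of them. Gmnn followed at 3.06 FPKM and ranked first in healthy control A392. Mcm4 (2.52), Mcm2 (2.51), Mcm3 (2.40) and Mcm6 (2.28 FPKM) formed a group whose order was not stable. Mcm4 exceeded Mcm2 in 13 of 23 libraries, Mcm2 exceeded Mcm3 in 11, and Mcm3 exceeded Mcm6 in 11. Mcm5 stood lower at 1.91 FPKM, below Mcm6 in 19 of 23 libraries. The loaders Cdt1 (1.18) and Cdc6 (1.14 FPKM) did not differ in a stable order either, with Cdt1 higher in 14 of 23. Mcm10 was the rarest, at 0.498 FPKM, and ranked last in 22 of 23 libraries.

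The helicase holds its 6 subunits in equal number, but their transcripts were not present in equal amounts. Mcm7 made up 33.5% ± 4.84 (SD, n = 4) of the summed FPKM of Mcm2 to Mcm7 in the control group. The share in MetOP saline was 27.5% ± 3.77 (n = 5), that in PYY 28.5% ± 3.64 (n = 4), that in semaglutide 42.7% ± 10.1 (n = 5) and that in the combination 32.5% ± 9.75 (n = 5). The sum itself was 25.35 ± 9.71 FPKM in MetOP saline and 10.3 ± 4.37 with semaglutide. The largest shares stood in libraries with small sums, with 56.7% at a sum of 7.96 FPKM in semaglutide A242 and 49.0% at 4.06 FPKM in combination A251. Combination A248, at a sum of 9.98 FPKM, had a share of only 28.0%. In MetOP saline A229 and combination A320, with sums of 37.67 and 43.44 FPKM, the shares were 24.3% and 23.6%. Over the 23 libraries Mcm7 ran from 1.99 to 11.37 FPKM and Mcm5 from 0.109 to 5.97 FPKM. The share was examined after the values were seen and was not tested.

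**Figure D2:**
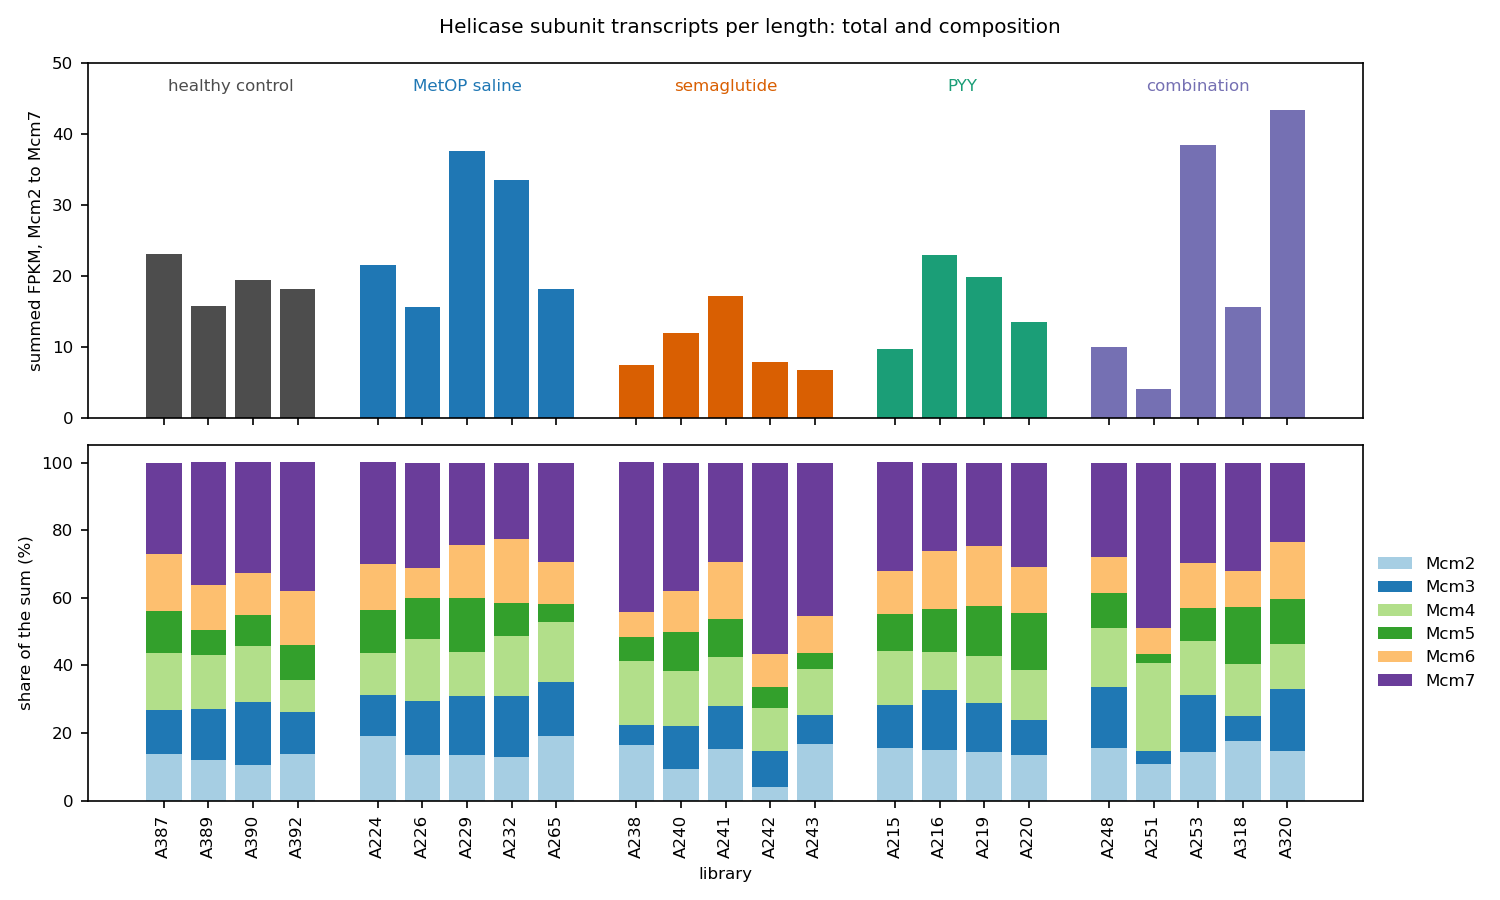
Summed FPKM of Mcm2 to Mcm7 in each library (top) and the share of each subunit in that sum in percent (bottom), with libraries ordered by group. The sum ranges from 4.06 FPKM in combination A251 to 43.44 in combination A320, and the Mcm7 share from 22.6% in MetOP saline A232 to 56.7% in semaglutide A242.

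Semaglutide versus MetOP saline asks how the drug changed the femora of rats with the model. All 10 genes were lower with semaglutide, by a median of -1.32 on the log2 scale, where all tested genes had a median of -0.04 and 52.4% of them were lower. None passed the edgeR quasi-likelihood test with Benjamini-Hochberg adjustment (adjusted p = 0.389 to 0.598), with 0% of the 15271 tested genes past the threshold. The unadjusted p was under 0.05 in 6 of the 10 genes (Mcm2, Mcm3, Mcm4, Mcm5, Mcm6 and Gmnn), against 7.24% of all tested genes in that direction. Most of the 10 genes rose and fell together across the libraries. Counts among them, here and below, are therefore not counts of separate observations. DESeq2 and limma voom also called none of the 10. In bulk RNA, fewer cells that express a gene and less RNA of it per cell cannot be told apart.

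Mcm4, a subunit of the helicase core (chromosome 11, 85258443 to 85272144 in mRatBN7.2, plus strand), had 11.02, 11.59, 19.64, 24.65 and 13.01 CPM in MetOP saline A224, A226, A229, A232 and A265. With semaglutide it had 5.71, 7.89, 10.96, 3.95 and 3.82 CPM in A238, A240, A241, A242 and A243. The highest semaglutide library, A241, lay just under the lowest saline library, so the groups did not overlap. Its log2 fold change was -1.31 (SE 0.41, edgeR unadjusted p = 0.00371, adjusted p = 0.389).

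Mcm3, another subunit (chromosome 9, 23219169 to 23237314, minus strand), had 8.06, 7.46, 18.98, 18.93 and 8.72 CPM in the same saline libraries and 1.37, 4.61, 7.005, 2.50 and 1.82 CPM in the semaglutide ones. These groups did not overlap either, and the log2 fold change of -1.84 (SE 0.66) was the largest of the 10. Groups that do not overlap with semaglutide lower were seen in 1.75% of all tested genes and in 2 of these 10, Mcm3 and Mcm4.

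Mcm2 (chromosome 4, 121346434 to 121360847, minus strand) had 14.05, 7.17, 16.44, 14.77 and 11.74 CPM with saline and 4.07, 3.81, 9.52, 1.02 and 3.86 CPM with semaglutide. Only semaglutide A241 reached above the lowest saline library, A226, and the log2 fold change was -1.53 (SE 0.52). Mcm5 (chromosome 19, 13483066 to 13504389, plus strand) had 9.29, 6.39, 19.04, 10.93 and 3.27 CPM with saline and 1.72, 4.52, 6.78, 1.58 and 1.11 CPM with semaglutide, a log2 fold change of -1.64 (SE 0.66). Mcm6 (chromosome 13, 39826763 to 39851960, minus strand) had 12.09, 5.65, 23.38, 26.71 and 9.32 CPM against 2.23, 5.94, 12.83, 2.96 and 3.08 CPM, a log2 fold change of -1.51 (SE 0.63). In each of these 3 genes semaglutide A241 was the highest of its group and the groups overlapped. Mcm7 (chromosome 12, 17042212 to 17050063, minus strand) differed least, with 14.79 to 26.79 CPM with saline and 9.47 to 16.37 CPM with semaglutide. Its log2 fold change was -0.69 (SE 0.34, edgeR adjusted p = 0.437).

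Of the loading factors, Cdc6 (chromosome 10, 83864638 to 83878011, plus strand) had 3.42, 2.66, 4.48, 10.21 and 3.15 CPM with saline and 0.822, 2.48, 5.29, 0.560 and 0.370 CPM with semaglutide. Semaglutide A241 was above 4 of the 5 saline libraries, and the log2 fold change of -1.33 (SE 0.75) had an edgeR adjusted p of 0.487. Cdt1 (chromosome 19, 50620713 to 50625659, plus strand) had 1.72, 1.23, 5.14, 4.42 and 1.998 CPM against 0.626, 2.75, 2.55, 0.791 and 1.203 CPM. Here the groups overlapped widely, with a log2 fold change of -0.87 (SE 0.63). Gmnn, the inhibitor (chromosome 17, 40301808 to 40310054, plus strand), had 5.67, 3.69, 6.28, 2.97 and 4.84 CPM against 0.626, 2.93, 3.43, 3.20 and 1.17 CPM, a log2 fold change of -1.05 (SE 0.49). Mcm10 (chromosome 17, 73266095 to 73287364, plus strand) had 2.52, 0.696, 2.07, 6.26 and 0 CPM with saline, the last in A265, where its 0 counts allow up to 0.1816 CPM. With semaglutide it had 0.391, 1.46, 2.32, 0.330 and 0.339 CPM, and the fitted log2 fold change of -1.26 (SE 0.88) rests on few counts. It was -0.46 without MetOP saline A232, which held 6.26 CPM, and -0.78 with limma voom. The value of Cdc6 was -0.85 without saline A232 and -2.19 without semaglutide A241, and that of Cdt1 was -0.57 without saline A229.

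Leaving out single libraries moved the number of genes at an unadjusted p under 0.05. The share of all tested genes at that level was taken in the main fit only. Counts from other fits, here and below, therefore stand without it. The median log2 difference of the 10 genes was -1.95 without semaglutide A241, where the unadjusted count was 8. The unadjusted count was 3 without MetOP saline A229 and also 3 without semaglutide A243. All 10 genes were lower in each of the 17 other fits made for this comparison, with medians from -1.95 to -1.11.

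**Figure D3:**
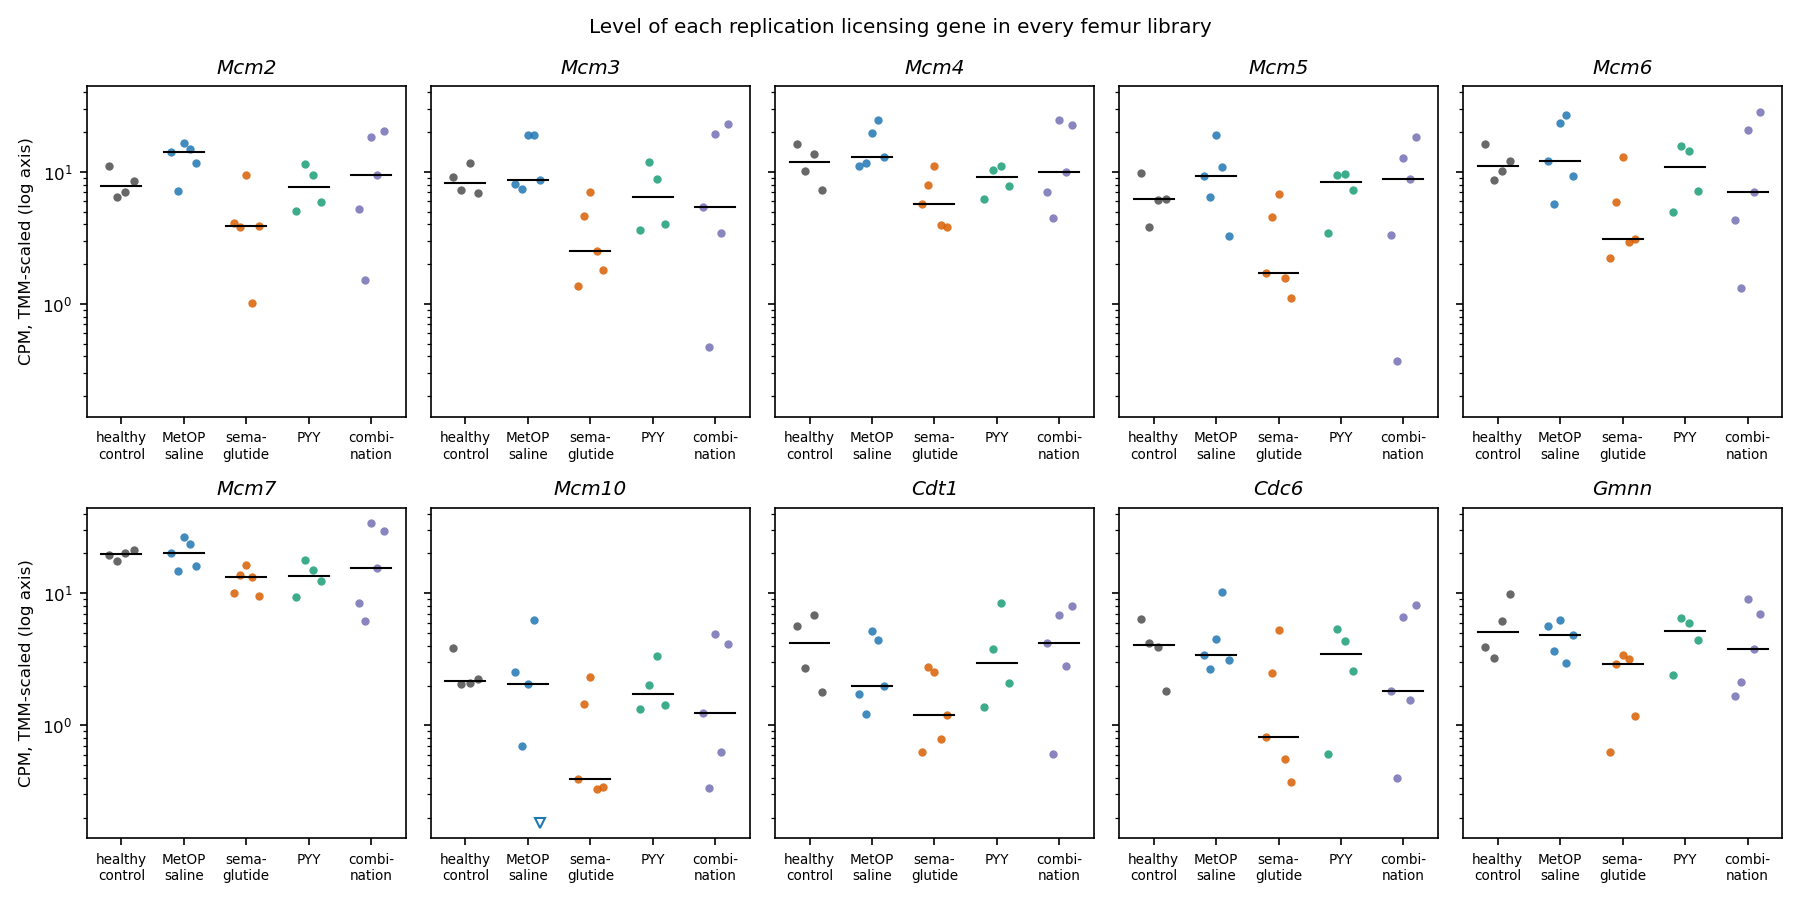
CPM of each of the 10 genes in the 23 libraries on a log axis, by group. Points are libraries, bars are group medians, and the open triangle marks the level that 0 counts allow for Mcm10 in MetOP saline A265. The semaglutide libraries lie below every saline library for Mcm3 and Mcm4, and for each of Mcm2 to Mcm7 the combination has the widest ratio of highest to lowest library, from 0.369 to 18.47 CPM for Mcm5. For Gmnn that ratio is 5.47 with semaglutide and 5.37 with the combination.

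The other steps of replication were read from gene lists chosen beside the 10 genes, with earlier results of these data known. No gene of these lists passed the edgeR test for semaglutide versus MetOP saline. Of the origin recognition genes, 6 of 8 were lower (median log2 fold change -0.21), with Orc1, the subunit that is regulated through the cell cycle, at -2.10 (SE 0.84) and Orc2 at -0.56 (SE 0.29). Genes of helicase activation were lower in 16 of 16 (median -0.97), among them Wdhd1, an adaptor between helicase and polymerase, at -1.95 (SE 0.58) and Dbf4, the activating subunit of the Cdc7 kinase that phosphorylates the loaded ring, at -1.64 (SE 0.57). Polymerases, clamp and ligase were lower in 17 of 20 (median -0.68), with the clamp Pcna at -0.98 (SE 0.34) and the polymerase subunit Pole2 at -2.03 (SE 0.74). Nucleotide supply was lower in 6 of 6 (median -1.07), with thymidine kinase Tk1 at -1.63 (SE 0.57).

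Regulators of the entry into S phase were lower in 15 of 16 (median -1.14), with cyclin E2 (Ccne2) at -1.88 (SE 0.57) and Skp2, a receptor subunit of a ubiquitin ligase that targets Cdt1, at -1.75 (SE 0.63). Genes that degrade or protect licensing factors were lower in 6 of 9 (median -0.25), with Fbxo5, an inhibitor of the ligase APC/C, at -1.44 (SE 0.69) and the scaffold Cul4a at 0.36 (SE 0.21). The other MCM proteins, which are not part of the ring of Mcm2 to Mcm7, were lower in 4 of 5 (median -0.76), with Mcm9 at -0.79 (SE 0.44). The 10 mitosis genes were all lower (median -1.49), with the checkpoint kinase Bub1 at -1.29 (SE 0.42) and cyclin B1 (Ccnb1) at -1.55 (SE 0.57).

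Markers of several cell types moved with the 10 genes in this comparison. Erythroid markers were lower in 12 of 12 tested (median log2 fold change -1.54), and their summed level ran from 5901 to 33130 CPM with saline and from 1570 to 15970 CPM with semaglutide. Macrophage markers were lower in 6 of 6 (median -1.39) at sums of 33.59 to 57.8 and 8.53 to 35.25 CPM. Osteoblast markers were lower in 7 of 7 (median -2.42) at sums of 340.5 to 6009 and 155.3 to 678.8 CPM. Neutrophil precursor markers were lower in 7 of 7 (median -0.81) at sums of 27.08 to 73.03 and 3.44 to 78.99 CPM, B precursor markers in 4 of 10 (median 0.04) at sums of 15.31 to 53.36 and 8.18 to 93.12 CPM, and chondrocyte markers in 6 of 6 (median -5.91) at sums of 20.64 to 3325 and 1.88 to 52.38 CPM. Skeletal muscle markers were higher in 8 of 8 (median 0.75), at sums of 13270 to 27590 with saline and 11330 to 48300 CPM with semaglutide. No marker of these lists was at 0 in every library. Adding the muscle level to the fit gave a median of -1.12 over the 10 genes, all lower, with an unadjusted p under 0.05 in 4. The share of mitochondrially encoded counts also differed, at 65.63 to 83.92% in the saline libraries and 54.41 to 67.43% in the semaglutide ones. With these genes left out of the fit the median was again -1.32, with 10 of 10 lower. The part of the other cell types in the difference was not tested.

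PYY versus MetOP saline asks the same of the gut peptide. Of the 10 genes 8 were lower and 2 higher (Cdt1 0.43, SE 0.65, and Gmnn 0.04, SE 0.52), with a median log2 fold change of -0.56 against -0.01 over all genes. None passed (edgeR adjusted p = 1), with 0% of all tested genes past the threshold, and no unadjusted p was under 0.05, against 4.85% of all tested genes. The unadjusted count was 2 with the muscle covariate, where 9 of 10 were lower at a median of -0.89, and 1 without saline A224, without saline A226 and with only these groups in the fit. The median was -0.18 without PYY A215 and -0.30 without saline A232. Mcm4 had 6.23, 10.32, 10.97 and 7.86 CPM in PYY A215, A216, A219 and A220, all below the lowest saline library at 11.02 CPM. Such a separation toward lower values was seen in 0.825% of all tested genes and in 1 of the 10. The gap between the groups was far smaller than the spread within either, and the log2 fold change was -0.85 (SE 0.43). Mcm7 had 9.34 to 17.74 CPM with PYY (log2 fold change -0.58, SE 0.36), and Mcm3 had 3.64 to 11.82 CPM (log2 fold change -0.81, SE 0.68). Several marker lists were also lower with PYY. Erythroid markers were lower in 12 of 12 (median -0.80, sums of 4235 to 22320 CPM with PYY), neutrophil precursor markers in 7 of 7 (median -1.36, sums of 5.24 to 34.92 CPM) and mature neutrophil markers in 6 of 7 (median -1.26, sums of 195.5 to 954.9 CPM). Megakaryocyte markers were lower in 6 of 6 (median -1.36, sums of 4.57 to 19.1 CPM) and skeletal muscle markers in 8 of 8 (median -0.62, sums of 2553 to 20710 CPM). The part of the marrow cell types was not tested.

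Semaglutide versus PYY compares the single drugs. The 10 genes were lower with semaglutide in 10 of 10, with a median log2 fold change of -0.997 against -0.06 over all genes. That median was -0.36 with the muscle covariate and -1.499 without semaglutide A241. Gmnn alone had an unadjusted p under 0.05 (log2 fold change -1.08, SE 0.52, edgeR adjusted p = 0.287), against 9.93% of all tested genes in that direction. None of the 10 passed (edgeR adjusted p = 0.287 to 0.918), against 0.00655% of all tested genes. Gmnn had 2.39, 6.52, 5.91 and 4.46 CPM in the PYY libraries, and semaglutide A240, A241 and A242 lay above the lowest of them, A215. Its log2 fold change was -0.67 with the muscle covariate. Without PYY A216 and with a muscle covariate, 9 of 10 were lower and Mcm7 changed direction, from -0.11 (SE 0.36) to 0.04 and 0.30. Muscle markers were higher with semaglutide in 8 of 8 (median 1.46). Megakaryocyte (6 of 6, median 0.85) and mature neutrophil markers (6 of 7, median 1.46) were higher too. Erythroid markers were lower with semaglutide in 12 of 12 (median -0.70), as the 10 genes were, and so were macrophage markers in 6 of 6 (median -0.98), osteoblast markers in 7 of 7 (median -2.51) and chondrocyte markers in 6 of 6 (median -5.80). The part of these cell types was not tested. The unadjusted count was 5 without semaglutide A241, 3 without PYY A215, 2 without semaglutide A240, and 0 without semaglutide A238 or A243, without PYY A216 or A219, or with the muscle covariate. DESeq2 gave 2.

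For Mcm2 to Mcm7 the combination group spread more than any other. The mean log2 CPM of Mcm2 to Mcm7 was 2.45, 0.65, 4.38, 3.06 and 4.55 in A248, A251, A253, A318 and A320, an SD of 1.59, against SDs of 0.29 in healthy controls, 0.59 in MetOP saline, 0.77 with semaglutide and 0.59 with PYY. A253 and A320 were the highest libraries of all 23, and A251 was the lowest. Mcm5 had 3.35, 0.369, 12.66, 8.89 and 18.47 CPM in these libraries, a ratio of 50 between the highest and the lowest. For Mcm3 the values were 5.45, 0.470, 19.20, 3.46 and 22.97 CPM, a ratio of 48.8. Mcm7, with 8.46, 6.21, 34.29, 15.57 and 29.78 CPM, and Mcm4 had the smallest such ratios of the subunits, 5.52 and 5.6. In A251 the erythroid level was also the lowest of all libraries (3.04 mean log2 CPM) and in A320 it was 7.62, while the muscle level was 12.08 in A251 and 6.88 in A320. In A253 the erythroid level was 7.27 and the muscle level 10.28. Semaglutide A242, at 1.59 for Mcm2 to Mcm7, had a muscle level of 8.51. The muscle level thus did not run opposite to Mcm2 to Mcm7 in every library.

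**Figure D4:**
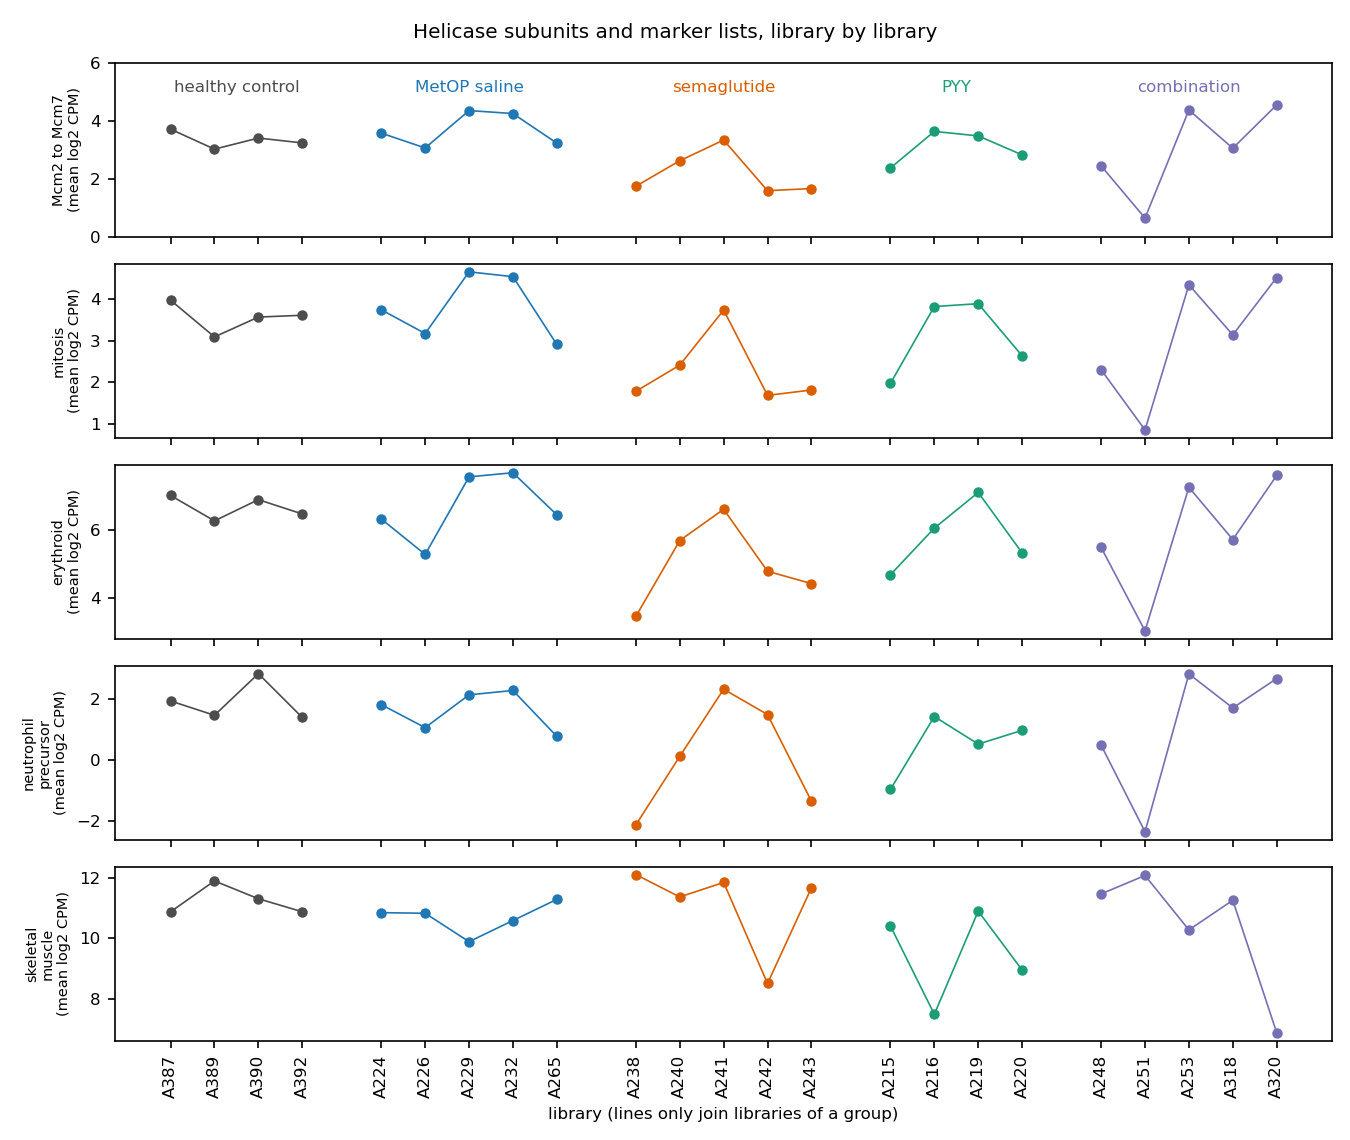
Mean log2 CPM of Mcm2 to Mcm7, of 10 mitosis genes and of erythroid, neutrophil precursor and skeletal muscle markers in each library, with panels on separate scales and lines that only join libraries of a group. Mcm2 to Mcm7 range from 0.65 in combination A251 to 4.55 in combination A320, where erythroid markers stand at 3.04 and 7.62 and muscle markers at 12.08 and 6.88. In combination A253 and semaglutide A242, Mcm2 to Mcm7 stand at 4.38 and 1.59 and muscle markers at 10.28 and 8.51.

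Combination versus MetOP saline gave 8 lower and 2 higher genes, with a median log2 fold change of -0.19 against 0.02 over all genes. None had an unadjusted p under 0.05, against 3.06% of all tested genes, and none passed (edgeR adjusted p = 1), where 0% of all tested genes did. The values ran from -0.37 (SE 0.73, Cdc6) to 0.63 (SE 0.62, Cdt1), each near or below its own standard error. Single libraries turned this direction, with 8 of 10 higher without combination A251 (median 0.11) and 5 of 10 higher without combination A248 (median 0.0026). The median was -0.51 without A253 or A320 and -0.53 with limma voom. In this comparison erythroid markers were lower in 12 of 12 (median -0.37), osteoblast markers in 7 of 7 (median -1.50) and mitosis genes in 10 of 10 (median -0.39). Osteoclast (7 of 7, median -2.01) and chondrocyte markers (6 of 6, median -2.88) were also lower. So were macrophage (6 of 6, median -0.57) and adipocyte markers (5 of 5, median -1.26). Mature neutrophil markers were higher in 6 of 7 (median 0.34) and skeletal muscle markers in 7 of 8 (median 0.33). Megakaryocyte markers were higher in 4 of 6 (median 0.32) and T and NK cell markers in 3 of 4 (median 0.58). The part of these cell types was not tested. Combination versus PYY gave 9 higher genes and 1 lower (median 0.23 against 0.02), with edgeR adjusted p from 0.914 to 1. Here too the direction did not hold, since 6 of 10 were lower with limma voom (median -0.0826), without PYY A215 (median -0.0658) and without combination A320 (median -0.16), while 10 of 10 were higher without PYY A216 (median 0.51). None was at an unadjusted p under 0.05, against 6.24% of all tested genes, and 0% of all tested genes passed. Cdt1 was among the genes higher with the combination in both comparisons, at 2.80 to 7.98 CPM in 4 of its libraries and 0.604 CPM in A251, and these values overlapped with those of saline and of PYY.

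Combination versus semaglutide asks what PYY added to semaglutide. The 10 genes were higher with the combination in 10 of 10, with a median log2 fold change of 1.20 against 0.05 over all genes. None passed (edgeR adjusted p = 0.816 to 0.837), with 0% of all tested genes past the threshold, and the unadjusted p was under 0.05 in 6 (Mcm2, Mcm3, Mcm4, Mcm5, Cdt1 and Gmnn) against 3.99% of tested genes in that direction. Mcm4 had 7.07, 4.43, 24.81, 10.02 and 22.62 CPM with the combination, so that A248, A251 and A318 lay inside the semaglutide range and A253 and A320 above it (log2 fold change 1.09, SE 0.40). Mcm2 had 5.21, 1.51, 18.46, 9.47 and 20.39 CPM, with only A253 and A320 above semaglutide A241 (log2 fold change 1.31, SE 0.52). Cdt1 had 4.21, 0.604, 6.81, 2.80 and 7.98 CPM, of which 4 lay above the highest semaglutide library (log2 fold change 1.501, SE 0.63). Gmnn had 1.67, 2.12, 8.98, 3.798 and 7.01 CPM (log2 fold change 1.06, SE 0.49, and 0.69 without combination A253). None of the 10 genes had groups that did not overlap, as against 0.288% of all tested genes.

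This difference depended on single libraries. Without combination A253 the count at an unadjusted p under 0.05 was 0 with a median of 0.85, and without combination A320 it was 1 with a median of 0.87. It was 2 without semaglutide A238 or A243, at medians of 1.03 and 1.02. With the muscle covariate it was 0 at a median of 0.82, with limma voom it was 1, and with only these groups in the fit it was 2. Erythroid markers were higher in 12 of 12 (median 1.24) at sums of 1403 to 25530 CPM with the combination, macrophage markers in 6 of 6 (median 0.898), osteoblast markers in 7 of 7 (median 0.92), neutrophil precursor markers in 6 of 7 (median 0.92) and chondrocyte markers in 6 of 6 (median 3.02). Skeletal muscle markers were lower in 8 of 8 (median -0.41) and adipocyte markers in 5 of 5 (median -0.27). The mitochondrial share was 46.13 to 82.59% with the combination, with A253 at the top and A251 at the bottom. Mitosis genes were higher in 10 of 10 (median 1.06). Genes of helicase activation were higher in 15 of 16 (median 0.86) with Wdhd1 at 1.504 (SE 0.57), origin recognition genes in 5 of 8 (median 0.18) with Orc1 at 2.20 (SE 0.84), nucleotide supply in 6 of 6 (median 0.84), and S phase entry in 15 of 16 (median 0.83). None of these genes passed, and the part of the cell types named here was not tested.

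The interaction of semaglutide and PYY is the departure of the combination from the sum of the log2 effects of the single drugs. It was positive in 10 of 10 genes, with a median of 1.63 against 0.03 over all genes. None passed (edgeR adjusted p = 0.999), with 0% of all tested genes past the threshold, and the unadjusted p was under 0.05 in 4 (Mcm2, Mcm3, Mcm4 and Mcm7) against 2.89% of tested genes. Mcm4 had an interaction of 1.95 (SE 0.59), Mcm3 of 2.39 (SE 0.95), Mcm2 of 1.998 (SE 0.75) and Mcm7 of 1.17 (SE 0.50). Erythroid markers were positive in 12 of 12 (median 1.99), mitosis genes in 10 of 10 (median 1.69) and helicase activation in 16 of 16 (median 1.16). Neutrophil precursor (7 of 7, median 2.17), mature neutrophil (7 of 7, 2.03) and megakaryocyte markers (6 of 6, 2.11) were also positive. So were macrophage (6 of 6, 1.14), osteoblast (7 of 7, 0.83) and chondrocyte markers (6 of 6, 3.11). Mixed lists were osteoclast (6 of 7 positive), B precursor (7 of 10), skeletal muscle (5 of 8) and adipocyte markers (3 of 5). The part of these cell types was not tested. The unadjusted count was 2 without combination A320 or with limma voom and 7 without semaglutide A241, with medians of 1.11, 1.35 and 2.28. This interaction and the comparisons above share the saline, semaglutide, PYY and combination libraries, so their directions are not separate evidence.

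**Figure D5:**
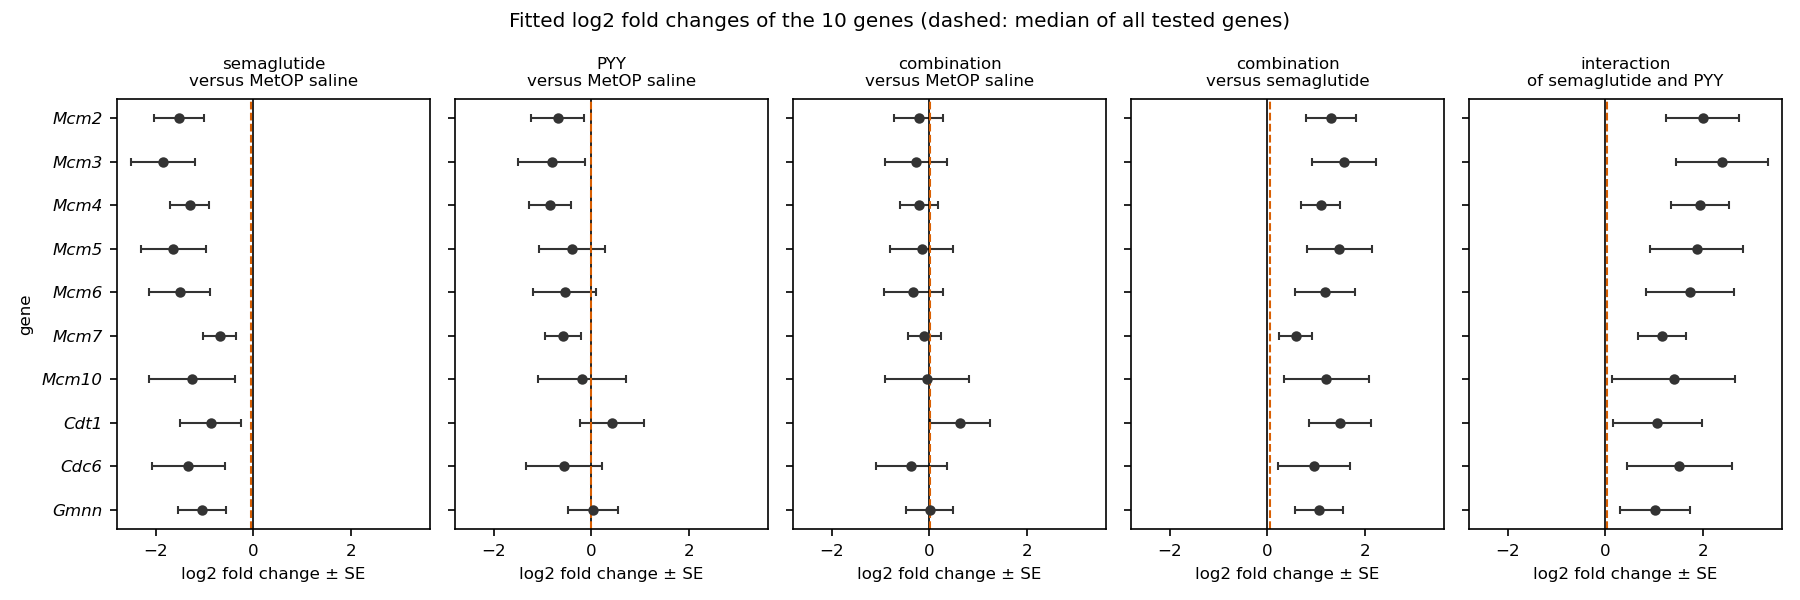
Fitted log2 fold changes of the 10 genes in 4 comparisons and their interaction, with bars of 1 SE on a shared axis. The dashed line is the median of all tested genes. Points lie left of 0 in 10 of 10 genes for semaglutide versus MetOP saline and right of 0 in 10 of 10 for combination versus semaglutide and for the interaction, and around 0 for combination versus MetOP saline.

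MetOP saline versus healthy control asks what the model itself did. The 10 genes were higher in 7 and lower in 3 (Cdt1 -0.55, SE 0.65; Gmnn -0.31, SE 0.52; Mcm10 -0.15, SE 0.91), with a median log2 fold change of 0.31 against 0.04 over all genes. None passed (edgeR adjusted p = 0.942 to 0.994), with 0% of all tested genes past the threshold, and no unadjusted p was under 0.05, against 6.55% of all tested genes. Mcm2 had 11.04, 6.43, 7.07 and 8.53 CPM in healthy A387, A389, A390 and A392, and 4 of the 5 saline libraries lay above all of these (log2 fold change 0.63, SE 0.55). Mcm7 had 19.41, 17.47, 20.08 and 21.38 CPM in the controls, a coefficient of variation of 8.32% and the steadiest of the 10 genes in any group. The median was 0.0425 without saline A232, where 5 of 10 were higher, 0.18 without control A392 and 0.53 without control A387. Muscle markers were lower with the model in 8 of 8 (median -0.56), with sums of 20200 to 42780 CPM in controls. Macrophage markers were higher in 6 of 6 (median 0.57), chondrocyte markers in 6 of 6 (median 1.17) and adipocyte markers in 5 of 5 (median 1.02). Erythroid markers were higher in 9 of 12 (median 0.22) and mitosis genes in 9 of 10 (median 0.30). Megakaryocyte markers were lower in 5 of 6 (median -0.41) and neutrophil precursor markers in 4 of 7 (median -0.39). The part of these cell types was not tested. With the muscle covariate 6 of the 10 genes were higher and 4 lower, at a median of 0.104.

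The balance of Gmnn and Cdt1 was followed because the proteins of the inhibitor and the loader are present at different phases of the cell cycle. The ratio here is one of transcripts, and the proteins were not measured. The log2 ratio of their FPKM was 1.46 ± 0.95 (SD, n = 23) over all libraries, so Gmnn was the more abundant. Combination A248 was the exception, with a ratio of -0.40. The mean was 1.45 ± 1.34 (n = 4) for controls, 1.79 ± 0.98 (n = 5) for MetOP saline, 1.425 ± 0.87 (n = 5) for semaglutide, 1.47 ± 0.71 (n = 4) for PYY and 1.15 ± 1.14 (n = 5) for the combination. None of the 7 comparisons between groups passed the exact two-sided permutation test (p = 0.365 to 0.96, adjusted over the 7 comparisons 0.852 to 0.96), where the smallest p that the test can give is 0.00794. The largest difference, combination minus MetOP saline, was -0.63, under the SD of either group.

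Outside the 10 genes, those whose levels ran closest to the mean profile of Mcm2 to Mcm7 were found by the root mean square difference of centred log2 CPM over all 23 libraries, among 15261 genes. The nearest was Atad2, an ATPase with a bromodomain, at 0.294, followed by Pabpc1, a poly(A) binding protein, at 0.304 and Ccnd3, cyclin D3, at 0.342. The others were Cyb561a3 (0.350), Tal1 (0.350), Bnip3l (0.355), Dennd4a (0.358), E2f2 (0.361), Dcaf12 (0.362) and Smc4 (0.362). The median over all genes was 1.28, and the profile itself had an SD of 0.962 on the log2 scale. Tal1 encodes a transcription factor of blood precursors, Bnip3l a receptor for mitochondrial removal in maturing red cells, E2f2 an E2F factor and Smc4 a condensin subunit. With each group centred on its own mean, 6 of the 10 nearest genes were shared, and Car1, a carbonic anhydrase of red cells, was nearest at 0.241. Among the 10 genes, each subunit was set against the mean of the other subunits, and Mcm6 ran closest (0.328). The genes outside the ring were set against the mean of all of Mcm2 to Mcm7. Of these, Cdc6 was at 0.564, Cdt1 at 0.624, Gmnn at 0.7 and Mcm10, the rarest, at 1.10. These values are a description over 23 libraries that differ in depth and tissue makeup.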

How the data were processed

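Raw counts per Ensembl gene and FPKM values for 23 libraries were deposited by the authors, with genes on mRatBN7.2 and DESeq2 1.42.0 in use, per the submitters' processing notes. The sources used here do not give the aligner, the counter or the strand setting, so overlapping genes and close paralogs are uncertain. The deposited FPKM values follow from the counts and gene lengths with 1 depth per library, a relation found in the values. That depth is not the library total, being 14.85 M against 26.63 M in A229 and 29.58 M against 24.76 M in A387. The FPKM values served for levels between genes, the sum and shares of Mcm2 to Mcm7, and the Gmnn to Cdt1 ratio.

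Library totals were 19.25 to 40.65 M counts, and the 10 genes had 529 to 5404 counts per library. The main test was the edgeR quasi-likelihood F test (version 4.0.16 in R 4.3.3), with TMM factors, filterByExpr by group and robust dispersions. It fitted a mean for each group over all 23 libraries, which left 18 residual degrees of freedom. Each SE of a fold change was derived from this test, as the absolute log2 fold change divided by the square root of F. The p-values were adjusted by Benjamini-Hochberg across 15271 tested genes, and a gene passed under 0.05. The common biological coefficient of variation was 69.9%. Level profiles are log2 CPM with a prior count of 2. A test on simulated data with 200 changed genes was run for the same fit. Alternatives were DESeq2, limma voom (limma 3.58.1), RLE factors, no filter, no mitochondrial genes, a muscle covariate, only the groups compared, and each library left out. Library numbers are unique, so nothing pairs samples across groups.

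Named were all 10 genes, at most the 2 genes of smallest p in each wider list, and the 10 genes nearest in profile. Cdc45 had 2 rows, of which the one with more counts was used. Of the list genes, 6 had no row of that symbol (Hba-a2, Hbb-b1, Azu1, Cd4, Myh1 and Mylpf) and were not used here. T and NK cell, megakaryocyte, mature neutrophil, osteoclast and adipocyte markers had medians of -1.94, -0.79, -0.41, -2.73 and -0.74 (log2) in semaglutide versus MetOP saline. The 10 genes, the lists and the motifs were chosen with earlier results of these data known.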

Additional observations from a re-analysis of the deposited data

Results flagged for a closer look

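Among 55 sets of values of a gene or ratio in a group, 3 had a single library far from the rest, where chance gives about 1 in 20. Mcm10 in healthy controls was 3.85 CPM in A387 against 2.07 to 2.25 CPM in the other 3. Cdc6 in MetOP saline was 10.21 CPM in A232 against 2.66 to 4.48 CPM in the other 4. The log2 ratio of Gmnn to Cdt1 with semaglutide was 2.94 in A242 against 0.889 to 1.35 in the other 4.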

How the results depend on the processing

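None of the 10 genes passed in any comparison under any of the other fits. The direction of 1344 of 1410 recomputed fold changes was that reported and that of 66 was reversed, in 23 of 80 gene and comparison pairs. No reversal concerned semaglutide versus MetOP saline, combination versus semaglutide or the interaction, whose medians over the 10 genes kept to -1.95 to -1.11, 0.82 to 1.79 and 1.11 to 2.28. The medians ran from -1.499 to -0.36 for semaglutide versus PYY, from -0.89 to -0.18 for PYY versus MetOP saline and from 0.0425 to 0.53 for MetOP saline versus healthy control. They crossed 0 for combination versus MetOP saline (-0.53 to 0.11) and combination versus PYY (-0.16 to 0.51). No paired analysis was possible because the library numbers are unique to each library. Over all genes, edgeR called 0 in each comparison but semaglutide versus PYY (1), and limma voom 1 in that comparison, 1 in combination versus PYY and 0 elsewhere. DESeq2 called 50 for MetOP saline versus healthy control, and 92, 5 and 5 for semaglutide, PYY and the combination versus saline. It called 14 and 13 for combination versus semaglutide and versus PYY, 502 for semaglutide versus PYY and 6 for the interaction. The genes it gave an adjusted p ranged from 5624 (PYY versus MetOP saline) to 19768 (combination versus MetOP saline). Without PYY A220 edgeR called 1021 of 15717 tested genes in semaglutide versus PYY. None of the 10 was among them, which at so small a share is not a result about them. In counts simulated for semaglutide versus MetOP saline, edgeR recovered 38 and 43 of 50 genes changed by -3 and 3 (log2). Of the genes changed by -2 and 2 it recovered 32 and 34 of 50. The 10 genes themselves differed by -1.84 to -0.69 in that comparison, and the recovery of differences of that size was not tested.

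The reversed fold changes (log2) were these, and their causes were not tested. In MetOP saline versus healthy control, Mcm7 was -0.0898 with the muscle covariate, and leaving out single libraries gave -0.0691 to 0.15 (reversed without A229 or A232). There Mcm10 gave -0.95 to 0.17 (reversed without A226, A265 or A387), Cdc6 -0.26 to 0.53 (A232 or A392) and Gmnn -0.51 to 0.0733 (A392). In PYY versus MetOP saline, Mcm10 was 0.65 with limma voom and -0.50 to 0.62 without single libraries (A215 or A232), Cdt1 -0.18 to 0.79 (A219), and Gmnn -0.0041 with limma voom, -0.30 with the muscle covariate and -0.14 to 0.34 without single libraries (A216, A226 or A232).

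In combination versus MetOP saline, leaving out single libraries gave -0.57 to 0.0838 for Mcm2, -0.80 to 0.0716 for Mcm3 and -0.53 to 0.0399 for Mcm4, each reversed without A251. Mcm5 gave -0.63 to 0.23 and Mcm7 -0.43 to 0.14 (both without A229, A248 or A251), Mcm10 -0.54 to 0.76 (A232, A248, A251 or A318) and 0.32 with limma voom, and Cdc6 -0.89 to 0.11 (A232). Gmnn gave -0.36 to 0.22 (A226, A232, A253 or A320), -0.14 with limma voom and -0.18 with the muscle covariate.

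In combination versus PYY, limma voom gave -0.18 for Mcm3, -0.51 for Mcm5, -0.28 for Mcm6, -0.33 for Mcm10 and -0.0341 for Cdc6. Without single libraries Mcm5 gave -0.24 to 0.49 (A215 or A320), Mcm6 -0.34 to 0.48, Mcm10 -0.35 to 0.44 and Cdc6 -0.32 to 0.55 (these 3 without A215, A253 or A320), and Cdt1 -0.14 to 0.83 (A215, A220 or A320). Gmnn gave -0.40 to 0.19 (A216, A219, A248, A251 or A318) and 0.13 with the muscle covariate. In semaglutide versus PYY, Mcm7 was 0.30 with the muscle covariate and -0.34 to 0.0448 without single libraries (A216). The difference in the log2 ratio of Gmnn to Cdt1 gave, without single libraries, -0.00743 to 0.99 for MetOP saline versus healthy control (A387), -0.43 to 0.14 for semaglutide versus PYY (6 libraries) and -0.67 to 0.12 for combination versus semaglutide (A242 or A248). It gave -0.67 to 0.03395 for PYY versus MetOP saline (A219) and -0.71 to 0.06985 for combination versus PYY (A248).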
